A study of Mus musculus with 4 samples.

Results

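The 9 genes Pax3, Pax7, Lbx1, Met, Hgf, Meox1, Meox2, Msc and Tcf21 belong to the regulatory network that makes and moves the progenitors of skeletal muscle in the embryo. Every probe set that the platform annotation names with one of these symbols was read, which gave 18 of the 45101 probe sets of the array, for 9 of 18193 named genes. Muscle was dissected from mouse embryos of age E13.5, with 1 Affymetrix array in each of 4 groups: limb muscle of MyoD-null embryos, limb muscle of wild-type (WT) embryos, back muscle of Myf5-null embryos and back muscle of WT embryos. The labels give the strain as BALB/c in every group, describe both mutants as knock-outs, and do not say whether embryos were pooled. MyoD, the product of Myod1, and Myf5 are basic helix-loop-helix (bHLH) transcription factors that direct cells to a muscle fate, and neither gene is among the 9. The series title places the work in a study of what skeletal muscle contributes to motor neuron development.

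Skeletal muscle of the trunk and limbs comes from the dermomyotome, the dorsal epithelium of the somite. Pax3 and Pax7 are paired-box transcription factors that mark its progenitor cells and act upstream of Myf5 and Myod1, and Pax7 later marks the satellite cells of adult muscle. Progenitors bound for the limb leave the somite when HGF, secreted by the mesenchyme on their route, acts on its receptor MET, whose gene is a target of Pax3, and the homeobox factor Lbx1 is needed for their migration. Meox1 and Meox2 are homeobox factors of the somite, and Meox2 is also needed for limb muscle. Msc (musculin) and Tcf21 (capsulin) are bHLH factors known from facial muscle progenitors. Several of the 9 genes are not confined to muscle progenitors: Pax3, Pax7 and Lbx1 are also known from the dorsal neural tube, Pax3 from neural crest, Met from epithelia, and Hgf, Meox2 and Tcf21 from connective tissue.

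Signals are linear intensities scaled to the same trimmed mean of 500 in every array. Signals under 100 were taken as not measured, so that a fold against one of them is a lower bound and is written "at least N-fold". Summed signals of marker lists still include them. The number of arrays, 1 per group, limits the precision: there is no spread over replicates and no p-value, and every difference compares single arrays. As a yardstick, the spread between probe sets that read one gene (the median SD of their log2 ratios) was 0.40 for MyoD-null over WT limb, 0.38 for the back array labelled Myf5-null over WT back and 0.40 for WT limb over WT back. It covers probe noise and not the difference between embryos. A gene was counted as different when its ratio was at least 2-fold and its brighter array reached 200, and each gene was represented by its brightest probe set.

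The targeted genes were read in all 4 arrays. Myod1 was 688 in MyoD-null limb against 1438 in WT limb (-1.06), so a signal remained, and its dimmer probe set gave -1.07. In the back pair Myod1 was 2333 in the array labelled Myf5-null against 2870 in WT back (-0.30), with 0.47 in the dimmer probe set. Myf5 was not lower in the back array labelled Myf5-null, at 583 against 508 in WT back (0.20). In the limb pair Myf5 was higher, at 1019 in MyoD-null limb against 506 in WT limb (1.01). The probes may lie outside the deleted parts of the genes, in which case they check nothing, so the genotypes below rest on the labels. All 15 markers of muscle fibres reached 100 in every array, and their summed signal was 59013 in MyoD-null limb against 89050 in WT limb, and 111129 in the back array labelled Myf5-null against 173405 in WT back. In such pieces of tissue, fewer cells of a type and less RNA per cell cannot be told apart. The share of signal from the 3 prime end differed too: the 3 prime over 5 prime ratio of Gapdh was 8.06 in MyoD-null limb against 12.2 in WT limb, and 9.46 in the back array labelled Myf5-null against 6.45 in WT back. Its part in the results below was not tested.

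The genes on which the results turn are Pax7, Met, Tcf21 and Meox2. The 250 bases before a transcription start of each are printed here because Pax7 and Met differed in the same direction as each other in both mutant pairs, Tcf21 in the opposite direction, and Meox2 separated the limb arrays from the back arrays. Sequences are from RefSeq on GRCm38.p6, 5′ to 3′ on the strand of the gene, and 5 of the 9 genes had an entry. Capitals mark the letters CANNTG, the E-box core read by bHLH factors such as MyoD and Myf5, and the letters TAAT on either strand, a core read by homeodomains. No build belongs to the array values themselves. The windows of Tcf21 and Meox2 lie at the annotated start of the gene, and those of Pax7 and Met do not. The windows lie at chr4:139832969-139833218 on the minus strand for Pax7, chr6:17463707-17463956 on the plus strand for Met, chr10:22820144-22820393 on the minus strand for Tcf21 and chr12:37108290-37108539 on the plus strand for Meox2.
Pax7: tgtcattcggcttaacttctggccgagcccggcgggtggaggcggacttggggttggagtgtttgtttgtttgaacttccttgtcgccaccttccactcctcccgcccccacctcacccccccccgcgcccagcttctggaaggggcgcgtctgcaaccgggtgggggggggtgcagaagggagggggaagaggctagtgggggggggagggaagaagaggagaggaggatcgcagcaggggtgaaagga
Met: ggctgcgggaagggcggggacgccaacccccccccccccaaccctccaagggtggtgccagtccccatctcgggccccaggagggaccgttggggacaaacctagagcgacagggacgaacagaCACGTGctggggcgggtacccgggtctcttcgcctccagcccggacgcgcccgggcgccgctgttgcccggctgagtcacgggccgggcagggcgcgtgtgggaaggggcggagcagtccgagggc
Tcf21: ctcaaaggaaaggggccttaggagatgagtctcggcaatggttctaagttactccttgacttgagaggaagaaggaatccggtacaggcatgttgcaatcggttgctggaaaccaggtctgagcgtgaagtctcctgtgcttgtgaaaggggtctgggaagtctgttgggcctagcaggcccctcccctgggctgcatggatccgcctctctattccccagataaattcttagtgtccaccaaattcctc
Meox2: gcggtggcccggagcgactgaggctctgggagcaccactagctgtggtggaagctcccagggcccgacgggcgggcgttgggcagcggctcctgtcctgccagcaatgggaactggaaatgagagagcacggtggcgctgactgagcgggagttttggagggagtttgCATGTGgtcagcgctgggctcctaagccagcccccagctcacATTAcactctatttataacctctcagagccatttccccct

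The windows of Pax7 and Tcf21 held 0 matches to either motif. Met had 1 CANNTG, with the letters CACGTG, and Meox2 had 1 CANNTG, with the letters CATGTG, and 1 TAAT match, and the marked stretches do not overlap. Of 32851 RefSeq windows of this length, 66.2% held a CANNTG and 54.9% a TAAT on either strand, so these matches are common. The share of G and C was 74.0% in Met, 65.2% in Pax7, 62.0% in Meox2 and 52.4% in Tcf21, against a median of 52.4% over all windows. Met held 24 CpG dinucleotides, Pax7 13, Meox2 12 and Tcf21 5, against a median of 6.00.

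**Figure D1:**
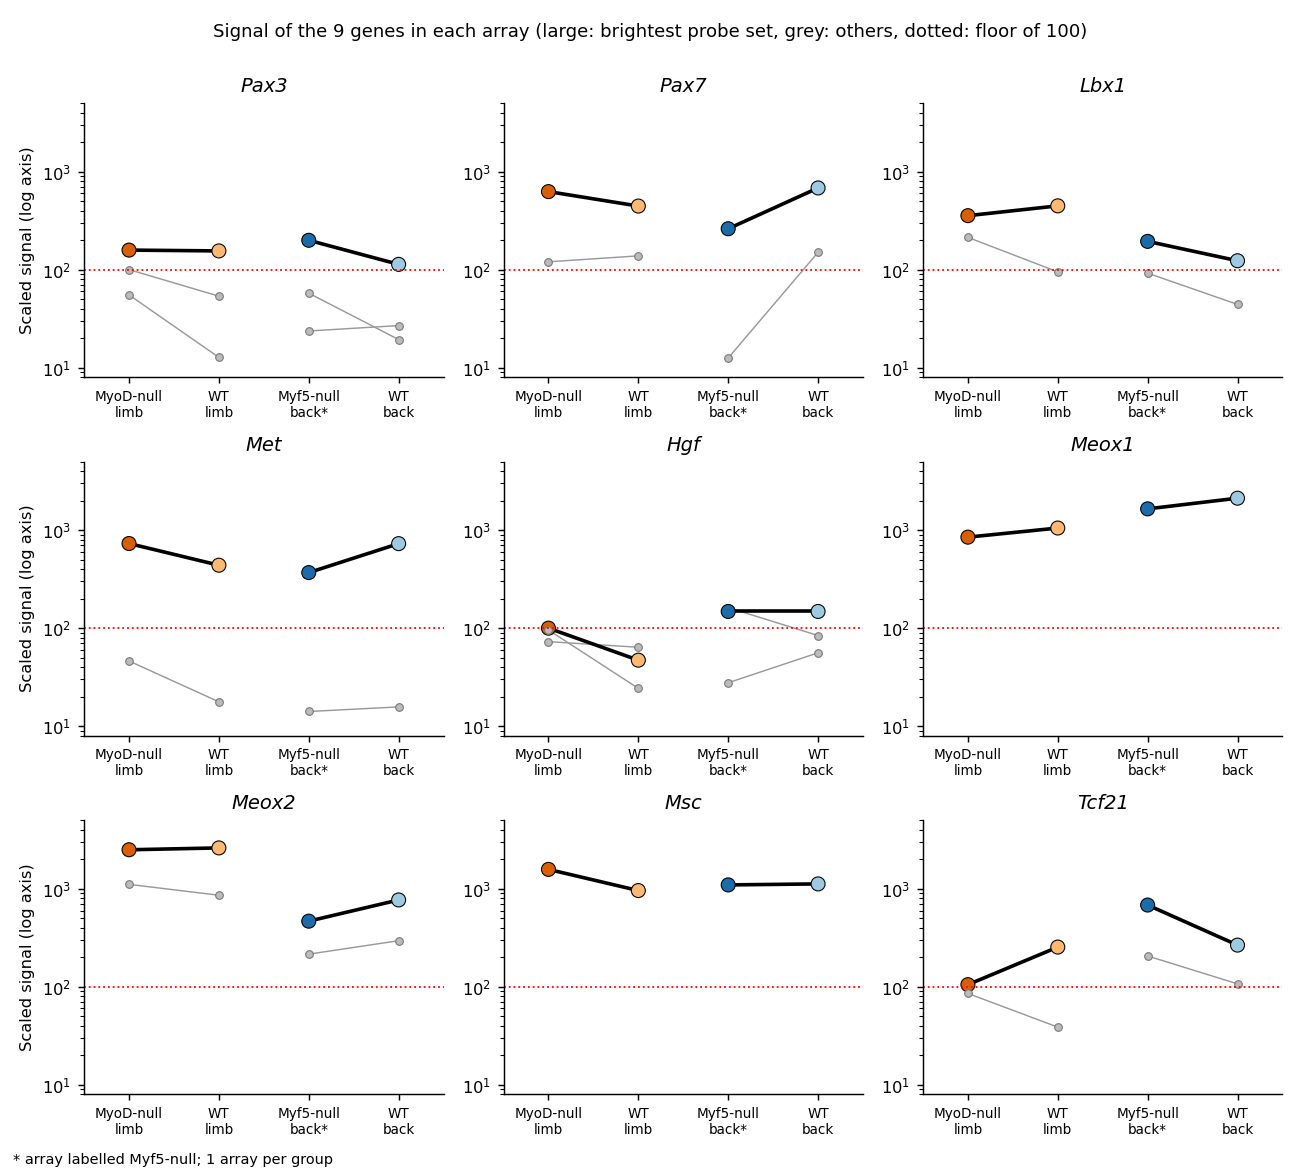
Scaled signal (log axis) of every probe set of the 9 genes in the 4 arrays, with the brightest probe set of each gene as large points, the others in grey and the floor of 100 dotted. Lines join the mutant and WT array of one site. Pax7 and Met are lower and Tcf21 is higher in the back array labelled Myf5-null than in WT back, and Meox2 lies at 2501 and 2613 in the limb arrays, above 467 and 769 in the back arrays.

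Among the paired-box factors, Pax7 gave the clearer signal. Pax7 was 625 in MyoD-null limb against 445 in WT limb, and 261 in the back array labelled Myf5-null against 681 in WT back. The log2 ratios were 0.49 in the limb pair and -1.38 in the back pair, so that Pax7 was higher in one mutant array and lower in the other. WT back and MyoD-null limb were the brightest arrays and lay closer to each other than the probe-set spread, WT limb came next, and the back array labelled Myf5-null was the dimmest. The dimmer probe set of Pax7 was also lower in the back array labelled Myf5-null, at least 1.50-fold, with 12.5 against 150 in WT back. In the limb it did not follow, with 120 in MyoD-null limb against 138 in WT limb (-0.20). As a median over both probe sets, the back ratio was -0.98, which no longer reached 2-fold.

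Pax3 was dim in these pieces. Its brightest probe set was 158 in MyoD-null limb against 155 in WT limb (0.02), and 199 in the back array labelled Myf5-null against 113 in WT back (0.82). It did not reach 200 in any array and so could not be counted, and with a floor of 200 its back ratio was 0.00. The other probe sets of Pax3 stayed under 100 in all 4 arrays, with values from 12.7 to 99.9. In the back pair, where Pax7 was lower, the Pax3 signal was therefore above its WT value but close to the floor. Markers of neural crest, in which Pax3 is known, did not share one pattern. The summed signal of 8 such markers was 4349 in the back array labelled Myf5-null against 5217 in WT back, with Erbb3 alone at 2263 against 3353. In this pair 4 of them were above 0 and 4 below, with a median of -0.10. The melanoblast gene Dct was 375 against 126 (1.57), while Pmel of the same list was 126 against 241 (-0.94). Their part in the Pax3 and Pax7 values was not tested.

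Met and Hgf encode the receptor and the ligand of the pathway that releases progenitors from the somite. Met was 731 in MyoD-null limb against 439 in WT limb (0.73), and 369 in the back array labelled Myf5-null against 729 in WT back (-0.98). As for Pax7, MyoD-null limb and WT back were the bright arrays, and they differed by less than the probe-set spread. The same arrays had the lowest 3 prime over 5 prime ratios of Gapdh, 8.06 and 6.45. WT limb had 12.2 and the back array labelled Myf5-null had 9.46. They also had the lowest median scaled signals, 125 and 134, against 153 and 166 in that order. The part of these array-wide differences in the Pax7 and Met values was not tested. The fold in the back was 0.507, just short of the 2-fold limit, and under quantile normalization the ratio was -1.02 and Met was counted as lower. The dimmer probe set of Met stayed under 100 in all 4 arrays, from 14.1 to 46.2, so the pattern rests on 1 probe set. Epithelial markers, 8 in all, summed to 13834 in MyoD-null limb against 12040 in WT limb, and to 9701 in the back array labelled Myf5-null against 7470 in WT back. In each pair 6 of them were above 0 and 2 below. Single markers differed from the sum. Those below 0 in the limb pair were Krt8, at 295 against 491 (-0.74), and Krt18, at 322 against 543 (-0.75). Cldn6 went with the sum in the limb pair, at 355 against 217 (0.71). In the back pair Cldn6 differed from it, at 78.8 against 233, at least 2.33-fold lower. The part of epithelium in the Met values was not tested.

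Hgf was near the floor. Its brightest probe set was 100 in MyoD-null limb against 47.1 in WT limb, and 148 in both the back array labelled Myf5-null and WT back. WT limb was at least 1.48-fold lower than WT back. Another probe set gave 162 in the back array labelled Myf5-null against 84.1 in WT back, at least 1.62-fold higher, and the remaining one stayed under 100 in all 4 arrays. The ligand could not be counted in any comparison, since no array reached 200.

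The other genes of the HGF and MET pathway, 23 listed, were nearly level between mutant and WT. In MyoD-null limb 10 of 20 measured genes had a log2 ratio above 0 and 10 below, 0 were at least 2-fold different in either direction, and the median was 0.01 against -0.04 over all genes. The matriptase gene St14, whose protease can activate HGF, was 199 in MyoD-null limb against 357 in WT limb (-0.84), and Cd44, a co-receptor of MET, was 146 against 245 (-0.74). For the back array labelled Myf5-null, 10 of 21 were above 0 and 11 below, 2 were at least 2-fold higher and 0 lower, with a median of -0.06 against 0.05 over all genes. Those higher were Hgfac, a protease that activates HGF, at 293 against 27.6 in WT back, at least 2.93-fold, and Mst1r, a receptor related to MET, at 278 against 86.0, at least 2.78-fold. Gab1, the adaptor that docks on MET, was 3639 in MyoD-null limb against 3153 in WT limb (0.21), and 2932 in the back array labelled Myf5-null against 3251 in WT back (-0.15).

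Lbx1, the homeobox factor of migrating progenitors, was brighter in the limb. It was 447 in WT limb against 123 in WT back, a log2 ratio of 1.87 or 3.64-fold. The mutant arrays gave 355 in MyoD-null limb against 194 in the back array labelled Myf5-null (0.87), so both limb arrays lay above both back arrays. Within sites, Lbx1 was 355 in MyoD-null limb against 447 in WT limb (-0.33), within the probe-set spread, and 194 in the back array labelled Myf5-null against 123 in WT back (0.66), both under 200. The probe sets of Lbx1 disagreed in the limb pair: the dimmer one was 213 in MyoD-null limb against 94.7 in WT limb, at least 2.13-fold higher. Its name marks probes shared between transcripts. The dimmer probe set was under 100 in both WT arrays, and as a median over both probe sets the limb over back ratio of the WT arrays was 0.93.

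The Meox genes separated the sites in opposite directions. Meox2 was 2613 in WT limb against 769 in WT back (1.76), and 2501 in MyoD-null limb against 467 in the back array labelled Myf5-null (2.42). The name of this probe set marks probes that can be shared between transcripts. The dimmer probe set, without that mark, showed the same order, at 859 in WT limb against 295 in WT back (1.54), and 1109 in MyoD-null limb and 215 in the back array labelled Myf5-null. Within the limb Meox2 was level, at 2501 in MyoD-null limb against 2613 in WT limb (-0.06), although the dimmer probe set gave 0.37. In the back it was 467 in the back array labelled Myf5-null against 769 in WT back (-0.72), and the dimmer probe set gave -0.46.

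Meox1 was brighter in the back. It was 1052 in WT limb against 2122 in WT back (-1.01), and 849 in MyoD-null limb against 1651 in the back array labelled Myf5-null (-0.96). Both back arrays thus lay above both limb arrays. Mutant and WT differed by less than the probe-set spread at each site, with log2 ratios of -0.31 in the limb pair and -0.36 in the back pair. Meox1 has 1 probe set, and its WT ratio was close to the 2-fold limit: it was -0.95 under quantile normalization, -0.96 after loess, and also short of 2-fold with a pseudocount of 100. The muscle fibre markers were lower in WT limb than in WT back in 14 of 15 cases, with a median of -0.98, close to the -1.01 of Meox1. The part of muscle content in the Meox1 difference was not tested.

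**Figure D2:**
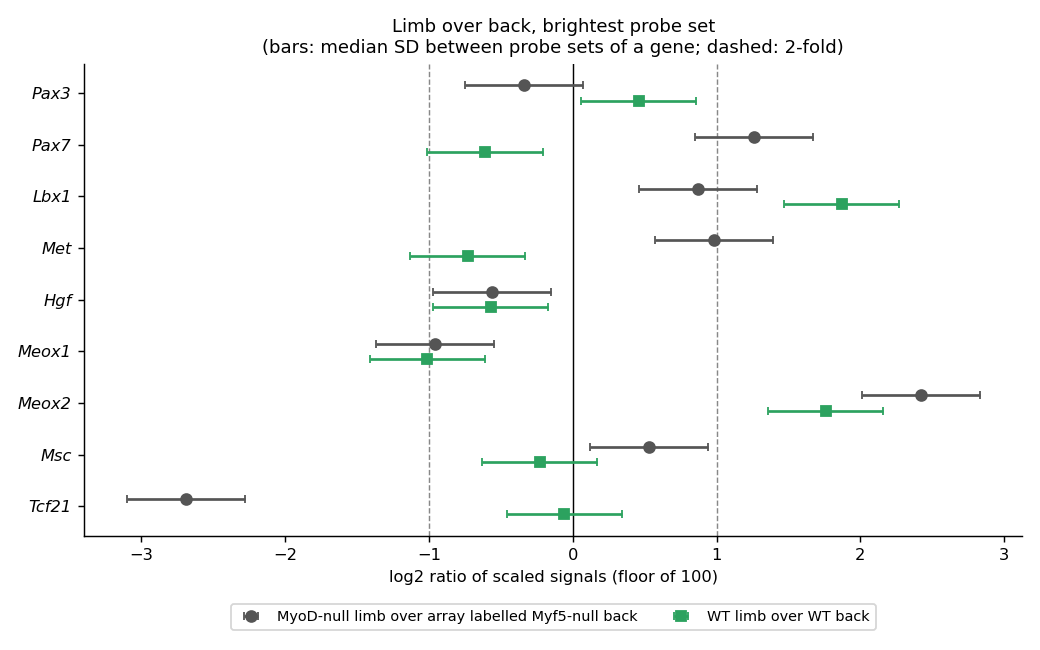
The log2 ratio of limb over back signal for the 9 genes, with circles for MyoD-null limb over the back array labelled Myf5-null and squares for WT limb over WT back. Bars are the median SD between probe sets of a gene and dashed lines mark 2-fold. Meox2 and Lbx1 lie right of 0 and Meox1 left of 0 in both readings, whereas Pax7 and Met change side.

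Between WT limb and WT back, 3 of the 7 genes that reached 200 were at least 2-fold different, against 11.2% of 11444 genes. Higher in WT limb were 2, Lbx1 and Meox2, against 6.76% of genes, and lower was 1, Meox1, against 4.47%. Pax7 was 445 in WT limb against 681 in WT back (-0.61), and Met was 439 against 729 (-0.73), each further from 0 than the probe-set spread. Beyond that spread 2 of 7 genes were above 0, Lbx1 and Meox2, against 23.3% of all genes, and 3 were below, Pax7, Met and Meox1, against 19.8%. Msc (-0.23) and Tcf21 (-0.06) were within it. Of genes whose brighter array was under 1000, as for Lbx1, 17.2% were at least 2-fold different, against 3.54% of brighter genes. When both limb arrays were set against both back arrays, with the lower array of one site at least 2-fold above the higher of the other, 1 of 7 genes passed, against 1.47% of 10304 genes. It was Meox2, which was higher in limb, against 0.708% of genes, while 0 were higher in back, against 0.757%. The mutant arrays of the sites lack different genes, and 2 arrays against 2 cannot give a two-sided exact p below 0.333, so this is a description.

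Somite genes that work with Meox factors, 14 listed, were read beside them. In WT limb over WT back 5 of 9 measured genes were above 0 and 4 below, with a median of 0.43 against 0.04 over all genes, and 1 was at least 2-fold higher. This was Tbx18, at 2901 in WT limb against 702 in WT back (2.05), a T-box factor of the somite that limb mesenchyme also makes. Its mutant arrays were 4613 in MyoD-null limb and 418 in the back array labelled Myf5-null. Over WT back, the back array labelled Myf5-null had 1 of 10 measured genes at least 2-fold higher and 2 lower, with a median of 0.14. Tcf15 (paraxis), a bHLH factor of the epithelial somite, was 604 against 270 in WT back (1.16). The sclerotome gene Pax1 was 157 against 418 (-1.41), and Foxc2 was 23.2 against 390, at least 3.90-fold lower.

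The bHLH factors Msc and Tcf21 gave different patterns over the arrays. Msc was 1577 in MyoD-null limb against 959 in WT limb (0.72), and 1095 in the back array labelled Myf5-null against 1121 in WT back (-0.03). MyoD-null limb was thus the bright array, and the other 3 arrays, from 959 to 1121, differed between neighbours by less than the probe-set spread. Msc has 1 probe set.

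Tcf21 was 105 in MyoD-null limb against 254 in WT limb (-1.27), and 682 in the back array labelled Myf5-null against 266 in WT back (1.36). The WT arrays were level and the mutant arrays lay on either side of them. The dimmer probe set also gave a higher value in the back array labelled Myf5-null, at 206 against 107 in WT back (0.94). In the limb the dimmer probe set was under 100 in both arrays, at 85.4 in MyoD-null limb and 38.7 in WT limb, and did not show the lower value. The limb difference lay close to the floor: it was -0.35 with a floor of 200, -0.79 with a pseudocount of 100 and -0.64 as a median over both probe sets, none of which reached 2-fold. Connective tissue markers, 11 in all, summed to 119320 in MyoD-null limb against 145180 in WT limb, and to 188949 in the back array labelled Myf5-null against 168919 in WT back. In the limb pair 3 of 11 were above 0 and 8 below, with a median of -0.29. In the back pair 5 of 10 measured were above 0 and 5 below, with a median of 0.04 against 0.05 over all genes. Bright collagen genes weigh most in these sums, such as Col1a2 in the back pair, at 57259 against 46690 (0.29). Visceral markers, where Tcf21 is also known, summed to 517 against 1152 in the limb pair and to 1754 against 3572 in the back pair. Of the 8 on the array, 2 reached 100 in MyoD-null limb and 5 in each other array, so much of the MyoD-null limb sum is signal under 100. In the limb pair 0 of 5 measured visceral markers were above 0 and 5 below, with a median of -0.82. Most of the difference between the back sums is the liver gene Afp, at 4.52 in the back array labelled Myf5-null and 1651 in WT back. Of 7 measured visceral markers in the back pair 3 were above 0 and 4 below, with a median of -0.04, and the lung gene Sftpc, at 227 against 68.2, was at least 2.27-fold higher. The part of either tissue in the Tcf21 values was not tested.

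**Figure D3:**
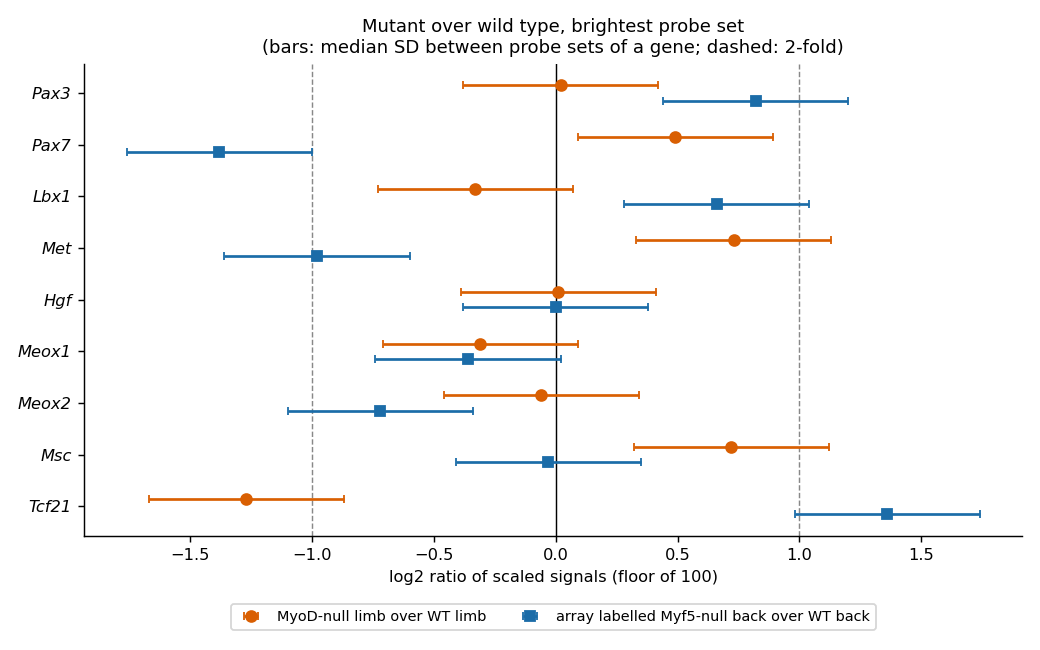
The log2 ratio of mutant over WT signal for the 9 genes, with circles for MyoD-null limb and squares for the back array labelled Myf5-null. Bars are the median SD between probe sets of a gene and dashed lines mark 2-fold. Pax7 (0.49 and -1.38) and Met (0.73 and -0.98) are higher in the limb pair and lower in the back pair, and Tcf21 (-1.27 and 1.36) is the reverse.

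In MyoD-null over WT limb, 1 of the 7 genes that reached 200 was at least 2-fold different, against 9.58% of 11344 genes. It was Tcf21, which was lower, against 6.64% of genes, and 0 were at least 2-fold higher, against 2.94%. In the back array labelled Myf5-null over WT back, 2 of 6 genes were counted, against 10.1% of 11633 genes: Tcf21 was higher, against 6.95% of genes, and Pax7 lower, against 3.13%. These shares depend on brightness. Where the brighter array was under 1000, as for both of these genes, 15.8% of genes in the limb pair and 16.7% in the back pair were at least 2-fold different, against 1.59% and 1.18% of brighter genes. With 6 or 7 genes that could be counted, nothing particular to them is read from these counts. Of the genes called over the whole array, 30.7% were higher in MyoD-null limb and 68.9% in the back array labelled Myf5-null, but 45.6% and 50.1% were under quantile normalization and 47.6% and 48.3% after loess.

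Outside the 2-fold limit, Pax7, Met and Msc lay above 0 by more than the probe-set spread in MyoD-null limb, which was 3 of 7 genes against 16.4% of all genes, and Tcf21 lay below, against 21.3%. In the back pair, Pax7, Met and Meox2 lay below 0 by more than the spread, which was 3 of 6 genes against 15.9%, and Tcf21 lay above, against 22.0%. Subtracting the back ratio from the limb ratio gave 1.87 for Pax7, a difference reached or passed by 0.974% of 12426 genes. It gave 1.72 for Met, reached or passed by 1.26%, and -2.63 for Tcf21, with 0.427% of genes at or below it. These were the genes whose ratios lay on opposite sides of 0 beyond the spread, so a large difference was built in. The other ranked genes were less extreme: 11.8% of genes were at or above Msc, 14.3% at or above Meox2, 44.0% at or above Meox1 and 14.2% at or below Lbx1. These ranks describe the 4 arrays and are no test, and the mutants differ in site as well as in gene. The ranks were not matched for brightness, and Pax7, Met and Tcf21 were under 1000 in every array, where 2-fold differences were more common.

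Further genes of dermomyotome and fetal progenitors, 17 listed, lay mostly above 0 in MyoD-null limb. Of 14 measured genes 10 were above 0 and 4 below, with a median of 0.38 against -0.04 over all genes, and 1 was at least 2-fold higher. This was Dmrt2, a dermomyotome factor, at 383 in MyoD-null limb against 160 in WT limb (1.26). Eya1, a cofactor in the same progenitors, was 665 against 394 (0.76), while its dimmer probe sets gave 0.00 and -0.54. Dach1, a partner of Eya factors, was 551 against 381 (0.53), but -0.60 in a dimmer probe set. Fgfr4, a growth factor receptor of muscle progenitors and a Pax3 target, was 385 against 553 (-0.52), with one of its dimmer probe sets at 0.74.

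The same list had, in the back array labelled Myf5-null, 6 of 14 genes above 0 and 8 below, with a median of -0.17 against 0.05 over all genes and 0 counted in either direction. Fgfr4 was 357 against 713 in WT back, just under 2-fold lower, and dimmer probe sets gave -0.15 and -1.67. Itga4, an integrin subunit that binds VCAM1, was 1210 against 1825 (-0.59). Six4, a homeobox factor of muscle progenitors, was higher, at 692 against 528 (0.39), but dimmer probe sets of Six4 gave -0.13 and -1.70. Dmrt2 was 472 against 601 (-0.35). Between the WT arrays Dmrt2 was 160 in WT limb against 601 in WT back (-1.91), so its limb ratio rests on a low WT limb value.

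**Figure D4:**
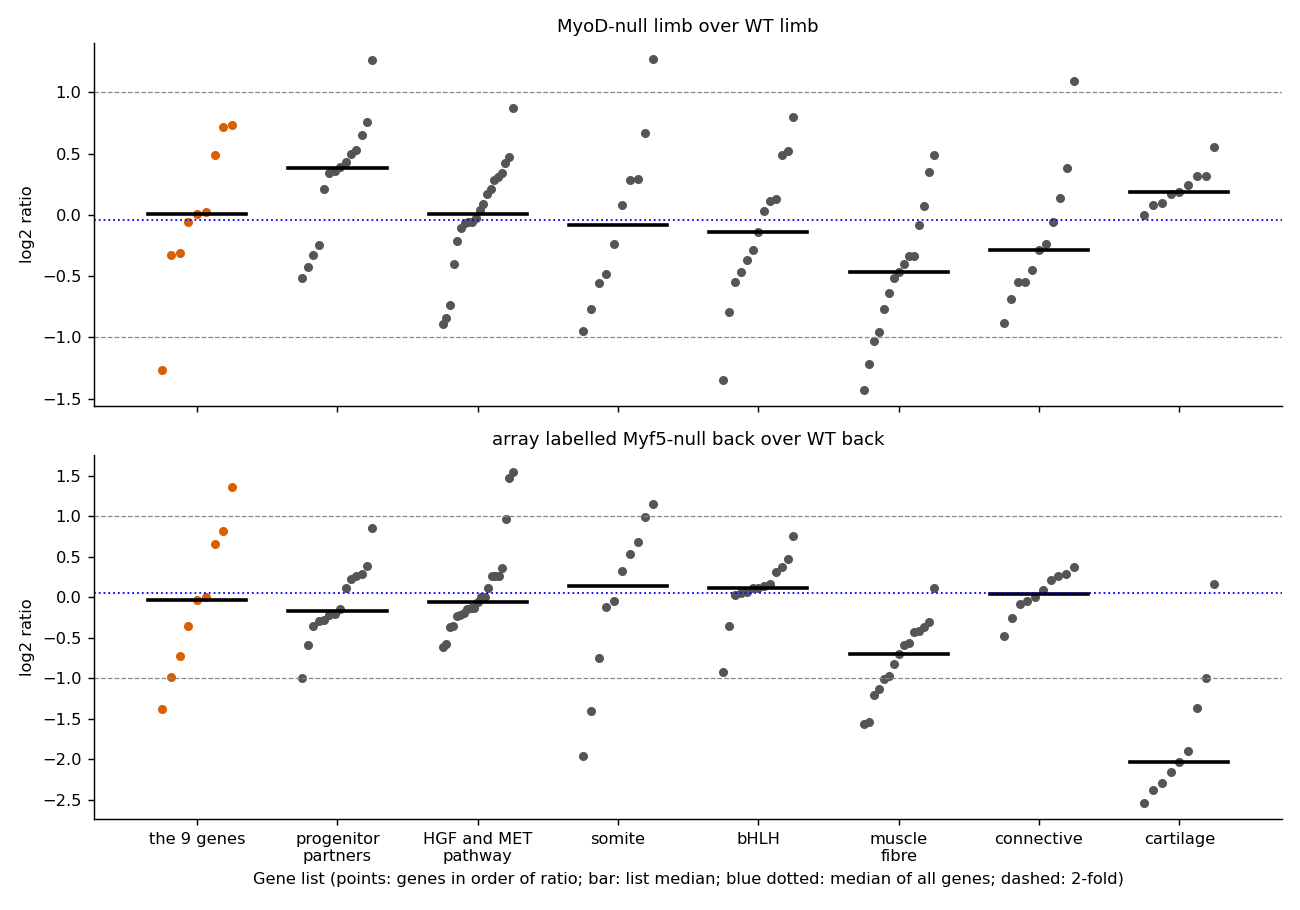
The log2 ratio of mutant over WT signal for each measured gene of 8 lists, in the limb pair (top) and the back pair (bottom). Bars are list medians, the dotted line is the median of all genes and dashed lines mark 2-fold. The 9 genes spread to both sides of 0 in both pairs, with medians of 0.01 and -0.03, while muscle fibre markers lie mostly below 0 in both and cartilage markers below 0 in the back pair.

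The 9 genes were read beside the tissue markers of the pieces. Muscle fibre markers were below 0 in 12 of 15 cases in MyoD-null limb (median -0.47) and in 14 of 15 in the back array labelled Myf5-null (median -0.70), whereas the 9 genes had medians of 0.01 and -0.03. Pax7 at -1.38 and Met at -0.98 were below the fibre median in the back pair, and Msc at -0.03 and Meox1 at -0.36 were above it. Cartilage markers differed most between the back pieces, with 8 of 9 below 0, a median of -2.04 and a sum of 4572 in the back array labelled Myf5-null against 20010 in WT back. In the limb their sum was 20862 in MyoD-null limb against 17487 in WT limb. Neuronal and dorsal spinal cord markers, where Pax3, Pax7 and Lbx1 are also known, summed to 2049 in MyoD-null limb against 2491 in WT limb. In the back their sum was 2144 in the array labelled Myf5-null against 2445 in WT back. The largest term of the limb sums was Lmx1b, at 732 and 607, which is also a factor of the dorsal limb, so these sums are not purely neural. In the limb pair 4 of 10 measured markers were above 0 and 6 below, with a median of -0.52. In the back pair 3 of 11 were above 0 and 8 below, with a median of -0.17. Of the markers of these tissues, Gbx1 and Cdx2 were under 100 in every array. The part of tissue makeup in the values of the 9 genes was not tested.

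Further bHLH factors and Id inhibitors, 14 listed, were read beside Msc and Tcf21, and not all of them are partners of these factors. They were mostly within 2-fold of WT in both mutant arrays. In MyoD-null limb 6 of 13 measured genes were above 0 and 7 below, with a median of -0.14, 0 at least 2-fold higher and 1 lower. In the back pair 11 of 13 were above 0 and 2 below, with a median of 0.12 and 0 counted in either direction. Scx, the tendon factor, was the one counted in the limb, at 218 against 554 (-1.35), while a dimmer probe set of Scx gave -0.22. In the back pair Tcf24 was 128 against 243 (-0.92), Twist2 was 3043 against 2204 (0.47) and Twist1 was 3567 against 2745 (0.38), the last being a factor of mesenchyme. Tcf12, an E protein that pairs with myogenic bHLH factors, was 11648 against 8115 (0.52) in the limb pair and 7122 against 9065 (-0.35) in the back pair. The brightest of its other probe sets gave 0.20 in the limb and -0.51 in the back, while a dim one gave -0.96 and 0.38, and the rest lay between -0.03 and 0.02.

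For the genes that spanned at least 2-fold over the arrays, the genes with the most similar pattern were found by Euclidean distance of the centred log2 signals, over 4 arrays and 12425 genes. Meox2 lay nearest to Lmx1b, a factor of the dorsal limb, at a distance of 0.27, with 732 in MyoD-null limb and 607 in WT limb, and 131 in the back array labelled Myf5-null and 189 in WT back. Pax7 lay nearest to Add2 (0.06), Lbx1 to Dleu2 (0.18), and Tcf21 to Rin3 (0.24) and Sv2a (0.30). Meox1 lay nearest to Gm20300 (0.02), which was under 100 in MyoD-null limb, and to Rai2 (0.10). With 4 arrays and so many genes, close matches are easily found.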

How the data were processed

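Trizol-extracted total RNA (6 µg) was turned into biotinylated cRNA, per the labels' protocols. The authors deposited linear intensities, 1 for each probe set in each array. The submitters' processing notes name MAS5 as the tool, with its version not given in the sources used. The deposited 2% trimmed means were 1477 to 1479, so each array had been scaled to one target before deposit. Detection calls and scanner files were not used here.

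Intensities were rescaled to a 2% trimmed mean of 500 without controls and floored at 100, and log2 ratios were computed for pairs of arrays. The platform annotation named the probe sets: 34945 non-control probe sets carry a single gene symbol, and 932 carry several, of which 0 name one of the 9 genes, and were left out. Symbols were checked against RefSeq by Entrez number, and 0 differed. Groups came from the sample titles. The WT arrays enter both the mutant and the limb over back comparisons, which are therefore not independent. The 9 genes, the lists and the 8 alternatives were chosen with earlier results of these data known. Named were the 9 genes, Myod1 and Myf5, and up to 4 genes a list by size of ratio among those reaching 200, together with the genes nearest in pattern. Only some of them are described, and not always those with the largest ratio; Gab1, Gbx1, Cdx2 and the mutant values of Tbx18 were added after their values were seen. The counting, loess and nearest-gene steps were tested on simulated data with Python 3.11.15, numpy 2.4.6, pandas 2.3.3 and statsmodels 0.14.6.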

Additional observations from a re-analysis of the deposited data

Results flagged for a closer look

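Genes that moved in opposite directions in the mutant pairs, each by more than the probe-set spread, were Pax7, Met and Tcf21. Pax7 had a log2 ratio of 0.49 in MyoD-null over WT limb and -1.38 in the back array labelled Myf5-null over WT back. Met had 0.73 in the limb pair and -0.98 in the back pair. Tcf21 had -1.27 in the limb pair and 1.36 in the back pair. The limb ratios of Pax7 and Tcf21 rest on 1 probe set each, and so do both ratios of Met. As a median over probe sets the limb ratio was 0.14 for Pax7, whose dimmer probe set gave -0.20. For Tcf21 the limb ratio was -0.64 as such a median and -0.35 with a floor of 200. For Met, whose dimmer probe set was under 100 in every array, the median was 0.37 in the limb pair and -0.49 in the back pair. This limb value of Met was within the probe-set spread of 0.40. With 1 array per group, the difference between the pairs was not tested.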

How the results depend on the processing

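No paired analysis was possible because each group has 1 array, and for the same reason no array could be left out. Of 216 recomputed ratios of the 9 genes, 195 moved by less than the probe-set spread, 21 moved by more, and 0 of the ratios counted as 2-fold changed sign. None of the 27 ratios moved by more than the spread without rescaling, under quantile normalization or after loess. Omitting the rescaling could hardly move a ratio, since the deposited trimmed means were already 1477 to 1479. Leaving out probe sets named for shared probes could move only Meox2, the only gene here whose brightest probe set is so named. Both settings are among the 216, so their stable ratios say little. In MyoD-null limb the count of 1 gene, lower, was 0 with a floor of 200, a pseudocount of 100, or the median over probe sets. In the back array labelled Myf5-null the count of 2 was 1 with the median over probe sets, with 0 lower. Under quantile normalization 2 were lower there, Pax7 and Met. Between the WT arrays, 0 were lower under quantile normalization, after loess and with the pseudocount, and 1 was higher with the median over probe sets. Genes separating both limb from both back arrays by 2-fold were 2 under quantile normalization, Lbx1 and Meox2. This count was not recomputed after loess, which is fitted within a pair. With a floor of 200 the share of all genes counted was 2.61% in the limb pair (main 9.58%), 2.36% in the back pair (main 10.1%) and 4.44% between the WT arrays (main 11.2%). With the pseudocount the shares were 4.23%, 4.97% and 5.80% in the same order. The Lbx1 limb ratio, -0.33, was 0.38 with the median over probe sets. Pax3 and Hgf lie near the floor, which limits what their ratios show.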
